A study of Ovis aries with 18 samples.

Results

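In the ovine pars tuberalis, 57 genes were higher in each of 8 animals kept on short photoperiod (SP) than in any of 7 animals kept on long photoperiod (LP). An eighth LP animal, animal 3 of those on LP for 4 weeks (LP4), was left out of the choice. Its library stood apart from the others across genes (median r of 0.449). In it 34 of the 57 genes (59.6%) lay above the highest SP library, as did 41.1% of the genes that the 57 were chosen from. Those were 12015 genes that averaged 5 CPM or more (read counts per 1000000 gene counts of a library, after TMM scaling), which are part of 13446 genes tested and of 25197 gene IDs counted. Before exclusions 58 genes, 0.483% of the 12015, met this condition, and 1 of them was set aside, being among 4 IDs that the rule left out by name. The separation between photoperiods is therefore how the genes were found, and their SP and LP levels are given as a description without a test.

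The animals were castrated male Scottish Blackface sheep. Groups had been on SP for 4 weeks (SP4) or 16 weeks (SP16), or on LP for 4 weeks (LP4) or 22 weeks (LP22), with 4 animals in each group by the labels. RNA was sequenced from whole pars tuberalis, so fewer cells of a type and less RNA per cell cannot be told apart. The labels number the samples but do not say how animals were allotted to groups, and the late time point was 16 weeks on SP and 22 weeks on LP, so duration was not matched.

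The pars tuberalis is the part of the pituitary that wraps the stalk beneath the hypothalamus. Its endocrine cells carry melatonin receptors, and the length of the nightly melatonin signal reports day length to them. On long days its thyrotrophs make thyrotropin, which acts on the neighbouring hypothalamus to change local thyroid hormone conversion and, through it, seasonal reproduction. The study describes seasonal prolactin control as a separate route, by a local signal from the pars tuberalis within the pituitary. Short days are the winter signal in this system.

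The counted features carry Ensembl IDs of the sheep Oar_v3.1 annotation, with no gene names beside them in the count files. The study's supplementary tables pair some IDs with symbols and were not used for names here. None of the 25197 IDs (0) matched the gene table at hand, so functions, positions and sequences of the 57 genes are not given, the tissue was not checked against marker genes, and only the IDs of the 2 genes with the widest gap between photoperiods are printed. The IDs do not tell which of the genes have close paralogs or overlap another gene, so reads shared in that way could not be looked for.

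Of the 18 libraries, 2 stood apart and were left out when the genes were chosen, both from LP4. Across genes, the log2 CPM of LP4 animal 3 correlated with that of the others at a median r of 0.449, and the first of the pair of libraries labelled LP4 animal 2 at 0.706. Medians of the remaining 16 ran from 0.922 to 0.951, and these held 1730773 to 4119508 gene counts. The library of LP4 animal 3 held 6331553 gene counts and the first of LP4 animal 2 held 1088288, and 47.2% and 68.8% of their reads counted as in a gene, in no gene or ambiguous fell in no gene, against 78.6% to 84.5% in the other 16. LP4 was thus represented by 3 animals, with animal 2 taken from its repeat library, and both libraries of SP4 animal 1 were summed. The labels call the second library of each pair a repeat, and that both of a pair came from the same animal was not shown by these counts. The choice rests on this exclusion: with all libraries of 16 animals, 24 genes met the condition, and 15 of them were among the 57.

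ENSOARG00000003932 had the widest gap of the 57 genes. On SP it stood at 38.9, 40.8, 39.3 and 41.1 CPM in SP4 animals 1 to 4 and at 52.5, 45.1, 54.0 and 31.2 CPM in SP16 animals 1 to 4. On LP it stood at 17.2, 18.8 and 15.9 CPM in LP4 animals 1, 2 and 4 and at 7.19, 10.8, 10.2 and 6.60 CPM in LP22 animals 1 to 4. The lowest SP animal was therefore 1.66 times the highest LP animal, and LP22 also lay wholly below LP4, while SP4 and SP16 overlapped. Group means were 40.0 ± 1.09 CPM in SP4, 45.7 ± 10.4 in SP16, 17.3 ± 1.46 in LP4 and 8.71 ± 2.13 in LP22 (SD, n = 4 each, 3 in LP4). The small SD in SP4 takes animal 1 as 1 value, though its libraries stood at 67.0 and 23.8 CPM with all 18 libraries scaled together. On that scale the libraries left out stood at 42.8 CPM (first of LP4 animal 2) and 60.7 CPM (LP4 animal 3). The log2 fold change of SP over LP was 1.20 (SE 0.181) at the early times and 2.39 (SE 0.18) at the late times. Its counts ran from 15 reads, in LP22 animals 1 and 4, to 218 reads in SP4 animal 1.

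ENSOARG00000015109 had the next widest gap. It stood at 33.3, 40.0, 38.0 and 21.7 CPM in SP4 animals 1 to 4 and at 21.7, 30.1, 24.2 and 22.5 CPM in SP16 animals 1 to 4. In LP4 animals 1, 2 and 4 it stood at 6.94, 9.21 and 14.7 CPM, and in LP22 animals 1 to 4 at 12.9, 13.1, 10.9 and 7.91 CPM. Here the durations overlapped within both photoperiods, and SP4 animal 4 and LP4 animal 4 set the gap, at a ratio of 1.48. Means were 33.2 ± 8.20 CPM in SP4, 24.7 ± 3.78 in SP16, 10.3 ± 3.98 in LP4 and 11.2 ± 2.42 in LP22 (SD, n = 4 each, 3 in LP4). Its log2 fold change of SP over LP was 1.69 (SE 0.25) early and 1.14 (SE 0.24) late, so the early value was the larger one, unlike that of ENSOARG00000003932.

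The most and the least abundant of the 57 genes show gaps of different width at different depth. The most abundant stood at 454.9, 416 and 410.1 CPM in SP4 animals 1 to 3, at 349.9 CPM in SP4 animal 4, and between 449 and 592 CPM in SP16. On LP it stood at 240.5, 117 and 342.9 CPM in LP4 animals 1, 2 and 4 and between 143 and 245 CPM in LP22. Its SD was wider in LP4 than in the other groups, 113 CPM against 43.4 to 64.1 CPM, and the gap between SP4 animal 4 and LP4 animal 4, at a ratio of 1.02, was narrow although it rested on 775 and 817 reads. The least abundant gene stood between 7.87 and 10.5 CPM in SP4, between 7.77 and 10.9 CPM in SP16, between 4.49 and 5.03 CPM in LP4 and between 1.71 and 6.27 CPM in LP22. Its ratio was wider, at 1.24, but its lowest value rested on 5 reads in an LP22 animal.

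**Figure D1:**
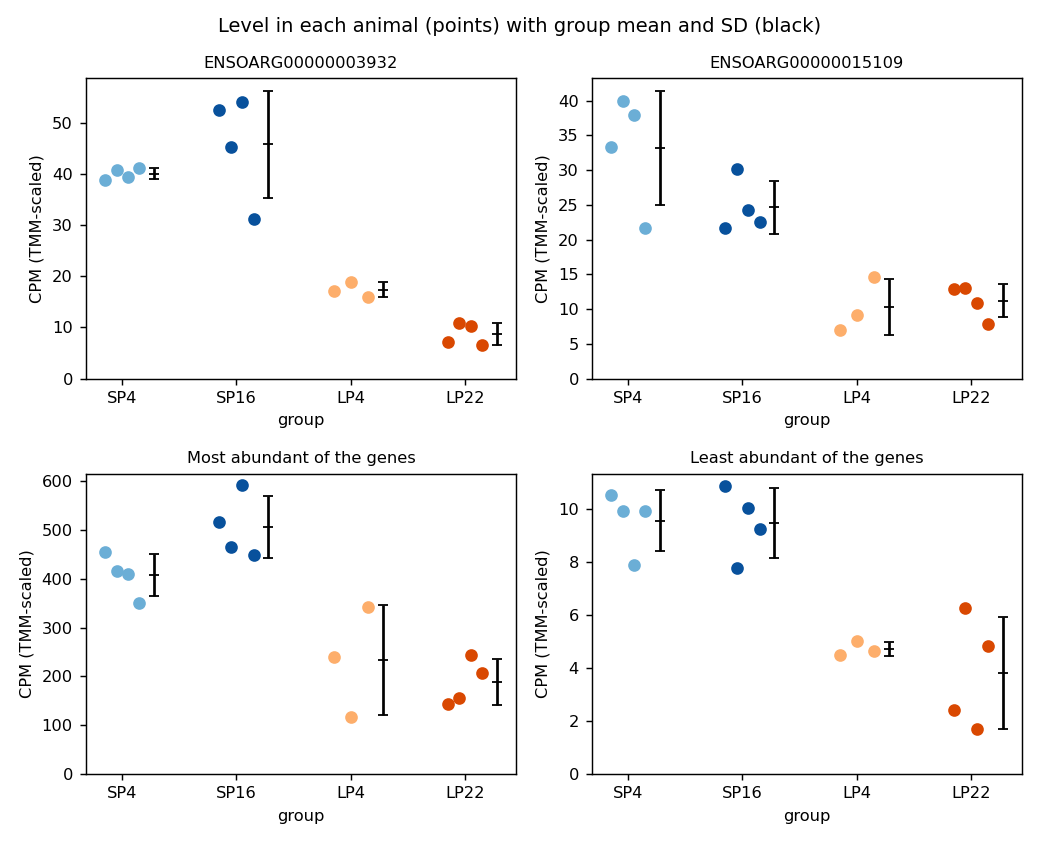
Level in CPM (y axis, from 0) of ENSOARG00000003932, ENSOARG00000015109 and the most and least abundant of the 57 genes, by group (x axis); points are animals and black bars are group means with SD. In ENSOARG00000003932 the LP22 points, between 6.60 and 10.8 CPM, lie below the LP4 points, and all SP points lie at or above 31.2 CPM.

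Over all 57 genes, mean levels ran from 7.03 to 340.5 CPM with a median of 35.1 CPM, against a median of 20.9 CPM over the 12015 genes. By level, 4 genes averaged under 10 CPM, 33 between 10 and 50 CPM, 12 between 50 and 100 CPM and 8 at least 100 CPM. The smallest count of a gene in any animal had a median of 39 reads and a lowest value of 2 reads. Gaps were mostly narrow: the ratio of the lowest SP animal to the highest LP animal had a median of 1.09, reached 1.1 in 26 genes, 1.2 in 10, 1.3 in 6 and 1.5 in 1. Around the separation limit, the last 2 genes inside had ratios of 1.00025 and 1.00145 and the nearest 2 outside had 0.99969 and 0.999663. Around the level limit, the 2 lowest genes inside averaged 7.03 and 8.35 CPM, and the highest 2 of the 3 separating genes outside averaged 4.47 and 3.45 CPM.

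The log2 fold change of SP over LP, averaged over both durations, had a median of 0.71 over the 57 genes and ran from 0.19 to 1.80, while the median over all 13446 genes was 0.00083. It was at least 1 in 16 genes. In the same fit 301 genes, 2.24% of those tested, were called higher on SP at an adjusted p under 0.05, and 56 of the 57 were among them. These calls use the contrast that chose the genes. Genes that separated in the other direction, with every LP animal above every SP animal, numbered 122 (1.02% of the 12015), with none set aside by name. Their log2 fold changes of LP over SP had a similar median, 0.64, but reached 5.73, and their widest ratio was 7.02 against 1.66, which was also the widest of the 58. The gene set aside on the SP side had a log2 fold change of 3.09.

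**Figure D2:**
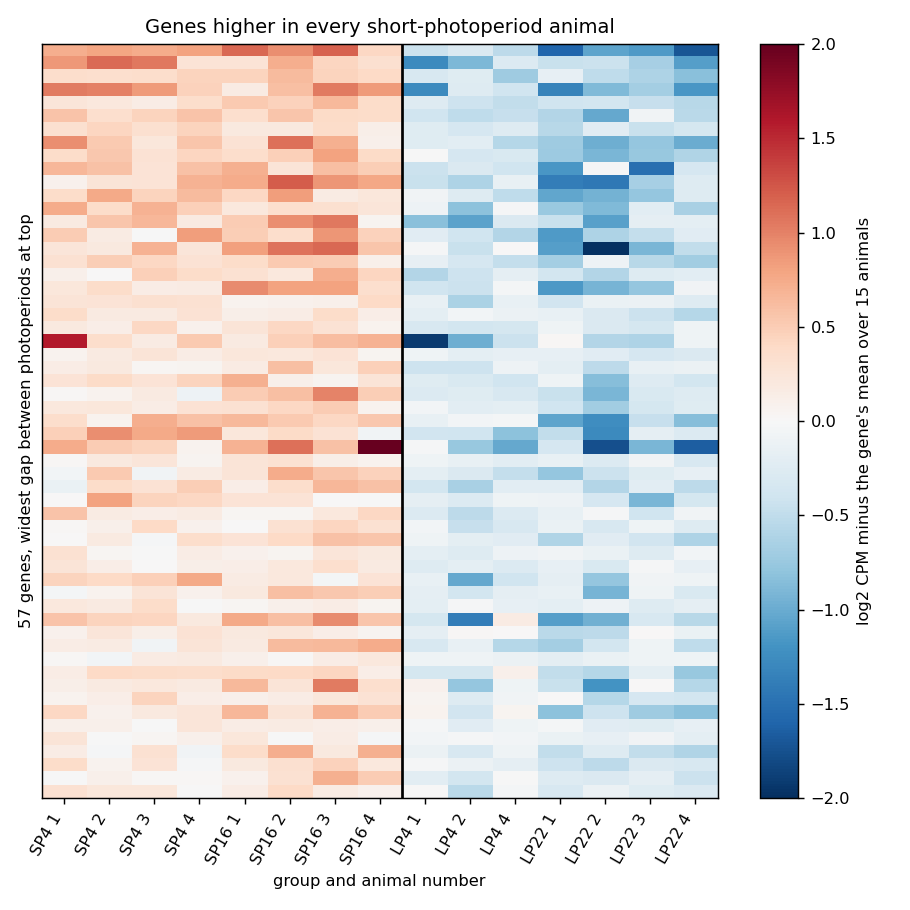
Log2 CPM of each of the 57 genes (rows, widest gap at the top) in each of 15 animals (columns, named by group and animal number), as the difference from the gene's mean over all animals; red is higher and blue is lower, and 2 values lie beyond the colour range of 2. A vertical line parts 8 SP animals from 7 LP animals, and most differences are small beside the colour range.

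Animals of one photoperiod were not alike. The median difference of the 57 genes from their means, on the log2 scale, was 0.25, 0.22, 0.28 and 0.27 in SP4 animals 1 to 4 and 0.26, 0.40, 0.43 and 0.34 in SP16 animals 1 to 4. On LP it was -0.20, -0.34 and -0.20 in LP4 animals 1, 2 and 4 and -0.42, -0.52, -0.32 and -0.32 in LP22 animals 1 to 4. SP16 animals 2, 3 and 4 lay above the whole of SP4, and LP22 animals 1 and 2 lay below the whole of LP4. Group means of this value were 0.25 ± 0.025 in SP4, 0.35 ± 0.075 in SP16 and -0.39 ± 0.094 in LP22 (SD, n = 4 each), and -0.25 ± 0.082 in LP4 (SD, n = 3). The lowest SP animal was in SP4 for 34 of the 57 genes (59.6%, against 49.8% of the 12015), and the highest LP animal was in LP4, with 3 of the 7 LP animals, for 37 (64.9%, against 47.7%). The rule used these values. Together the 57 genes took 3737 to 3872 CPM in SP4 and 3934 to 4494 CPM in SP16, against 2438 to 2813 CPM in LP4 and 2353 to 2628 CPM in LP22.

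Whether the SP excess was the same after a short and a prolonged exposure was asked by setting SP4 over LP4 beside SP16 over LP22, which share no animal. The median log2 fold change of the 57 genes was 0.56 early, from 0.15 to 2.00, and 0.86 late, from 0.23 to 2.47. A difference of at least 1 was found in 9 genes early and in 20 genes late. At an adjusted p under 0.05, 19 of the 57 were called early, where 0.573% of all genes were called higher on SP, and 44 late, where 1.49% were; the choice of genes uses both contrasts, so nothing is read from these counts. The late difference was larger in 43 genes and the early difference in 14. The gene with the most unequal pair of values had a log2 fold change of 0.53 early and 2.15 late, and the one most unequal in the other direction had 2.00 early and 0.86 late. The former averaged 8.35 CPM, with 6, 2, 10 and 11 reads in LP22 animals 1 to 4. The latter stood at 31.2 CPM in SP4 animal 1 and between 11.1 and 14.4 CPM in the other SP4 animals. In LP4 animal 1 it rested on 5 reads.

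**Figure D3:**
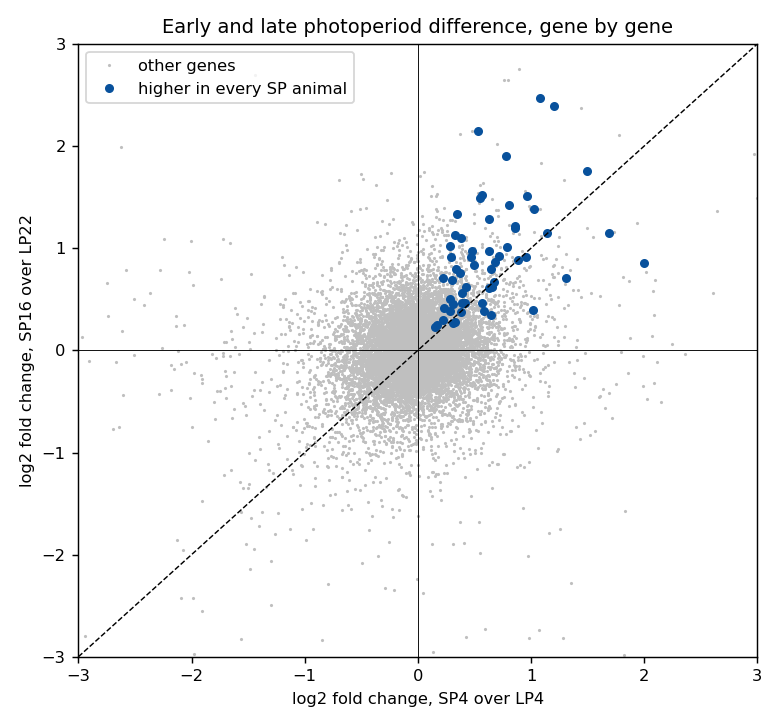
Log2 fold change of SP4 over LP4 (x axis) and of SP16 over LP22 (y axis) for each gene; blue points are the 57 genes, grey points the others, and the dashed line marks equal values. All blue points lie right of and above 0 because the rule requires it, 43 of them above the dashed line; 25 genes beyond 3 on either axis are not drawn.

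The difference between both excesses, (SP16 − LP22) − (SP4 − LP4), is not used by the rule and was tested as an interaction. No gene of the 57 passed an adjusted p of 0.05 (0 genes by edgeR's quasi-likelihood test; lowest adjusted p = 0.0931, for ENSOARG00000003932), where 12 genes, 0.0892% of those tested, did. DESeq2's Wald test called 1 of the 57, ENSOARG00000003932, at an adjusted p of 0.0487, where it called 0.399% of the genes to which it gave an adjusted p. At an unadjusted p under 0.05 there were 20 of the 57 (35.1%), 17 with the larger excess late and 3 early. Over all genes this was 10.5%, or 714 genes with a positive and 693 with a negative value. Such a share was not taken for the other settings given below. The median interaction was 0.21 on the log2 scale over the 57 genes and 0.0011 over all genes, and 75.4% of the 57 had a positive value against 50.1% of all genes. Without a scaling factor the median of all genes moved to -0.20, 29 of the 57 had a positive value, their median was 0.0036 (0.20 relative to that shift), and 8 in place of 20 had an unadjusted p under 0.05. Leaving out SP16 animal 3 or LP4 animal 1 lowered the 20 to 13 in each case, and leaving out SP16 animal 4 put 1 gene past the adjusted threshold, again ENSOARG00000003932. Its adjusted p over all settings tried ran from 0.046 to 0.419. The share of all genes past the adjusted threshold was not taken without SP16 animal 4, so nothing is read from that call. The tagwise coefficient of biological variation had a median of 0.112 in the 57 genes and 0.129 in the 12015, and the part of this lower spread in the shares was not tested.

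The same pattern was taken apart into its duration effects, which share animals with the interaction. Shares of all genes at an unadjusted p are over the 13446 genes tested, also those under 5 CPM. What part the lower spread of the 57 genes had in their shares within SP and within LP was not tested. Within SP, SP16 was set against SP4. None of the 57 genes changed at an adjusted p under 0.05 (0 by edgeR's quasi-likelihood test; lowest adjusted p = 0.129), where 1 gene, 0.00744% of those tested, did, and DESeq2 called 1 of the 57, higher in SP16, where it called 0.522%. At an unadjusted p under 0.05 there were 16 of the 57 (28.1%), 13 higher and 3 lower in SP16, against 10.7% of all genes (767 higher, 677 lower). The 16 became 9 without a scaling factor and 1 with all libraries of 16 animals. In these settings the share of all genes was not taken. The median log2 fold change was 0.054, with the middle 50% of genes between -0.046 and 0.31, and 37 of the 57 were higher in SP16. Every SP16 animal lay above every SP4 animal in 4 genes (7.02%) and below in 3 (5.26%), where 3.41% and 3.31% of the 12015 genes did so. The gene with the lowest p averaged 106 CPM in SP4 and 164 CPM in SP16, a log2 fold change of 0.62 (SE 0.13).

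Within LP, LP22 was set against LP4. Again no gene of the 57 passed (0 by edgeR, lowest adjusted p = 0.159; 0 by DESeq2), where edgeR called 4 genes, 0.0297% of those tested, and DESeq2 0.105%. The 10 genes at an unadjusted p under 0.05 (17.5%, against 8.71% of all genes) were all lower in LP22, whereas over all genes 576 were higher and 595 lower. As within SP, the part of the lower spread of the 57 genes in this share was not tested. With all libraries of 16 animals there were 31 in place of 10. The share of all genes was not taken in that setting, so the 31 is not read as a result about the 57. The median log2 fold change was -0.11, with the middle 50% between -0.31 and -0.031, and 43 of the 57 had a negative value. Every LP4 animal lay above every LP22 animal in 10 genes (17.5%), where 3.62% of the 12015 did so, and the reverse held in 0 of the 57, where 3.8% did. ENSOARG00000003932 had the lowest p here, with a log2 fold change of -0.99 (SE 0.22, adjusted p = 0.159 by edgeR), while that of ENSOARG00000015109 was 0.11 (SE 0.28, adjusted p = 0.939). With all libraries of 16 animals these values were -1.82 and 0.61.

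LP4 animal 2 was scaled by the lowest TMM factor, 0.633, where the other animals had 0.965 to 1.08. Without it, 9 in place of 10 genes had an unadjusted p under 0.05, 12 in place of 14 genes were higher in LP22 and 44 in place of 43 had the larger excess late. Without any scaling factor, all genes together moved by 0.22 between LP22 and LP4, and 34 of the 57 genes then had a positive log2 fold change. Relative to that shift the median of the 57 was -0.13, against -0.11 with TMM, while the number at an unadjusted p under 0.05 fell from 10 to 2. For these counts the share of all genes was not taken.

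**Figure D4:**
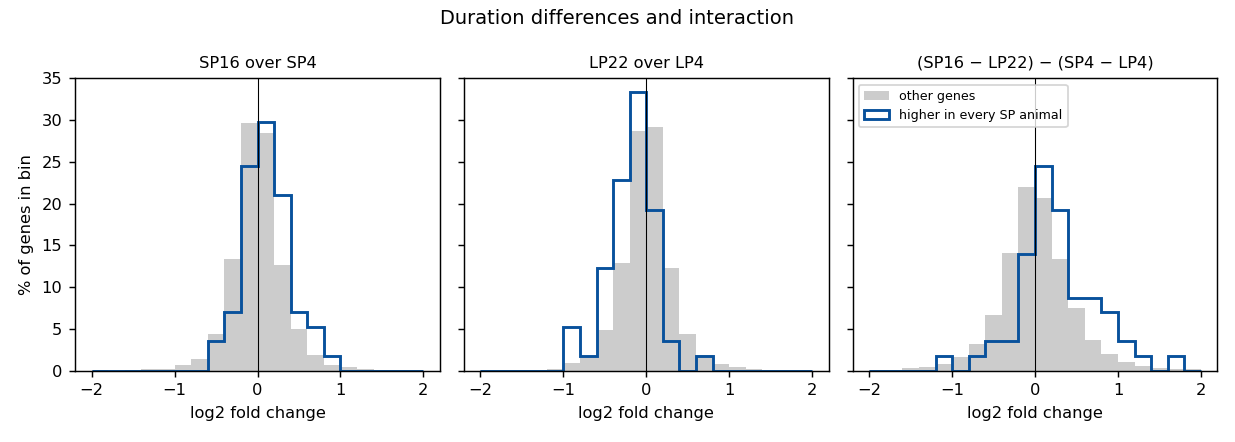
Share of genes (y axis, percent) by log2 fold change (x axis, bins of 0.2) for SP16 over SP4, LP22 over LP4 and the interaction; grey bars are other genes and blue outlines the 57. The blue outline is shifted right in the SP16 over SP4 and interaction panels (medians 0.054 and 0.21) and left in the LP22 over LP4 panel (median -0.11); 38, 89 and 107 genes beyond 2 are not drawn.

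The same measure in animals that the choice had not used was had by repeating the rule without each animal in turn and reading the chosen genes in the animal left out. Without an SP animal the rule chose 67 to 86 genes, and 69.8% to 86.6% of these lay above all LP animals in the animal left out, as did 13.6% to 15.9% of the 12015 genes. Without an LP4 animal it chose 84 to 91 genes, and 64.8% to 67.9% lay below all SP animals in the animal left out, against 12.6% to 20% of all. Without an LP22 animal the values were 62 to 76 genes and 75% to 91.9%, against 12.7% to 17.1%. The chosen genes already separated all the other animals, so the shares over all genes are not a like baseline and nothing is read from the difference. Among the chosen genes, the share was lowest in LP4, the group with 3 animals.

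**Figure D5:**
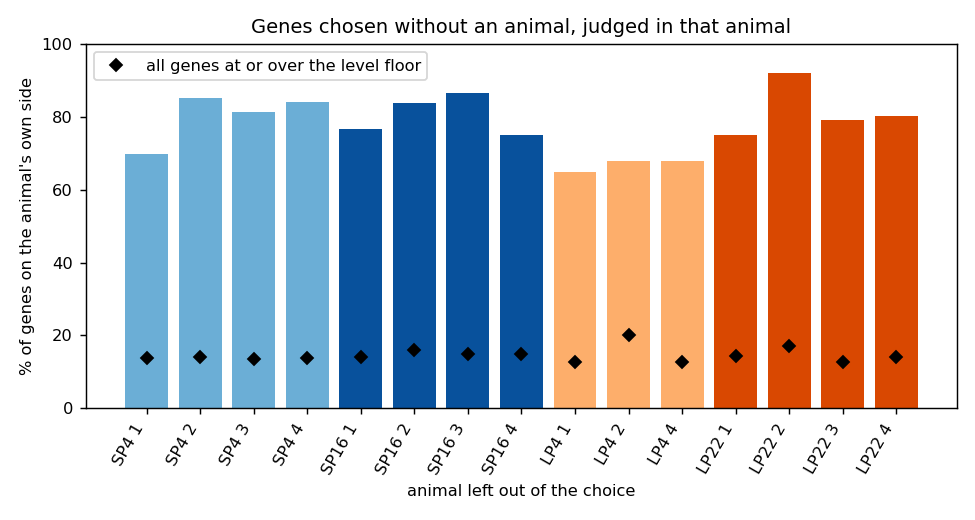
Share of genes (y axis, percent, from 0) chosen without the animal named on the x axis that fell on that animal's own side, above all LP animals for an SP animal or below all SP animals for an LP animal; diamonds give the same share over the 12015 genes. Bars run from 64.8% in LP4 animal 1 to 91.9% in LP22 animal 2, and diamonds from 12.6% to 20%. Bars and diamonds are not a like comparison, because the chosen genes already separated all the other animals.

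The libraries left out were read last, with all 18 libraries scaled together. In LP4 animal 3, 16 of the 57 genes (28.1%) lay below the lowest SP library, where 45.8% of the 12015 genes did, and 34 (59.6%) lay above the highest SP library, where 41.1% did. In the first library of LP4 animal 2, 17 (29.8%) lay below and 11 (19.3%) above, where 38.0% and 32.0% of all genes did. The library labelled as its repeat had 55 (96.5%) below and 0 above, where 17.2% and 19.2% of all genes did. The choice used this library, so its counts are largely set by the rule. ENSOARG00000003932 stood at 60.7 CPM in LP4 animal 3 and at 42.8 and 18.4 CPM in the first and repeat libraries of LP4 animal 2, whereas ENSOARG00000015109 stood at 0.968, 3.57 and 9.0 CPM. In both libraries left out, the first gene thus lay within the range of the SP libraries and the second below it. The gene counts and shares of reads in no gene given above also set these libraries apart, and their part in these values was not tested.

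The libraries of SP4 animal 1 differed as well. ENSOARG00000003932 stood at 67.0 CPM in the first and 23.8 CPM in the repeat library, and ENSOARG00000015109 at 17.4 and 40.3 CPM, so the summed values above join unlike libraries that are 1 animal by the labels. Read alone, the first library held 53 of the 57 genes above the highest LP library and the repeat library 51, where 17.6% and 16.9% of the 12015 genes lay there. The rule used the sum of both libraries, so these counts are largely set by the choice and nothing is read from them. With only the first library the rule chose 67 genes, 52 of them among the 57, and with only the repeat 53, of which 51 were.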

How the data were processed

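The authors deposited raw read counts per gene for 18 libraries from 16 sheep, made with Bowtie and HTSeq on Oar_v3.1 per the submitters' processing notes; versions, strand setting and filters are not given in the sources used here. The 5 HTSeq summary lines were left out. Titles of the samples gave each group, animal number and repeat but not how animals were allotted, so p-values measure only the spread between these samples.

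Counts of 15 animals were filtered by filterByExpr (minimum count 10, minimum total 15), scaled by TMM and fitted in 1 model with edgeR 4.0.16 (glmQLFit, glmQLFTest) in R 4.3.3; 2-sided p-values were adjusted by Benjamini-Hochberg over 13446 genes. Tests used FDR under 0.05. The genes were chosen among those that passed this filter. Log2 CPM used a prior count of 2. SEs were derived from F statistics. DESeq2 1.42.0 was an alternative. Scripts were tested on simulated data. Figures used matplotlib 3.10.9.

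The genes and comparisons were chosen with earlier results of these data known. Named genes were to be the 25 with the widest ratio and others past a test; the study's supplementary tables pair some IDs with symbols but were not used here, so 2 IDs are printed, the fixed gene and marker lists could not be applied, and genes most like a member were not looked for.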

Additional observations from a re-analysis of the deposited data

How the results depend on the processing

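The number of genes chosen stayed between 53 and 69 under RLE, upper-quartile and no scaling, level limits of 1 and 10 CPM, no filter before scaling (chosen after the data were seen) and either library of SP4 animal 1 alone, but without a scaling factor 40 of the 69 were among the 57; it was 24 with all libraries of 16 animals and 62 (without LP22 animal 2) to 91 (without LP4 animal 1) when an animal was left out, with 86 without SP4 animal 1 and 87 without LP4 animal 2. The median log2 fold change of SP over LP (0.71) was 0.80 without a scaling factor, 0.45 with 16 animals and 0.67 to 0.74 with an animal left out. Genes past the adjusted threshold rose from 0 to 1 for SP16 against SP4 without a filter and by DESeq2, and for the interaction by DESeq2 and, among fits without an animal (0 to 1), without SP16 animal 4; for LP22 against LP4 they stayed at 0 in every setting run. Genes at an unadjusted p under 0.05 were 9, 2 and 8 without a scaling factor in place of 16, 10 and 20 (SP16 against SP4, LP22 against LP4, interaction), 1 and 31 with 16 animals for the first 2, 6 by DESeq2 for the second, and 0, 0 and 5 at a log2 fold change of at least 1. With an animal left out they were 12 to 17, 7 to 10 and 13 to 22. The share of all genes at an unadjusted p under 0.05 was taken only in the main fit. That past the adjusted threshold was taken only in the main fit and by DESeq2. Counts of positive values, examined under other settings only after the data were seen, were 34 without a scaling factor for LP22 against LP4 in place of 14, and 34 to 40, 12 to 17 and 41 to 47 with an animal left out. The log2 fold change of ENSOARG00000003932 in SP16 against SP4 went from 0.20 to -0.037 with only the first library of SP4 animal 1, and that of ENSOARG00000015109 in LP22 against LP4 from 0.11 to -0.11 without LP4 animal 1 (-0.11 to 0.46 with an animal left out); neither passed a threshold. The causes were not tested.

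The labels number animals 1 to 4 in every group. After group means were taken off, animals that share a number correlated across genes at a mean r of -0.0102 over 21 pairs (from -0.163 to 0.172), against 0.0037 over 63 other pairs. These means showed no likeness by number across genes. They cannot show whether animals of the same number were linked in some genes or some pairs. With the replicate block 0 genes passed in each of the 3 tests, and 15, 8 and 17 in place of 16, 10 and 20 had an unadjusted p under 0.05. The fit on only the groups compared was not run for the interaction, which uses all groups. Low counts limit the least abundant genes, whose smallest values rest on as few as 2 reads.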
